A study of Mus musculus with 4 samples.

Results

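Macrophages given linoleic acid were compared with macrophages given oleic acid. Both acids have 18 carbons, and linoleic acid (C18:2) has 2 double bonds where oleic acid (C18:1) has 1. The comparison was the log2 value on the linoleic acid array minus that on the oleic acid array, which are 2 of the 4 arrays of the series. Probes with exactly 1 annotated gene were averaged per gene, and a gene was kept where its highest value on the 4 arrays reached 7.09, the median of all values. This kept 11174 of 19938 genes, and the limit is one of brightness, not of detection. Just under it lay Rab4a and Vamp1, whose linoleic minus oleic differences were -0.23 and 0.11, and just above it lay Cyb561 and Olfm2, with -0.11 and -0.07.

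The linoleic acid cells received 500 µM linoleic acid complexed with fatty acid-free bovine serum albumin (BSA), and the oleic acid cells 500 µM oleic acid prepared in the same way. A palmitic acid (C16:0) array at 500 µM and a control array were given beside them. The control is labelled as BSA only, while the treatment protocol speaks of a vehicle with ethanol and KOH. All cells were incubated for 6 h and came from wild type C57BL/6 mice 8 to 12 weeks old. These mice had been injected in the peritoneum with 1 mL of 4% thioglycolic acid, an irritant that draws macrophages into the cavity, 3 days before harvest, so the controls carried this stimulus too, and the cells used were those that adhered to the plate. RNA of 3 samples was pooled for each array, and whether these came from separate mice is not said. With 1 array per group no test, standard deviation or interval can be had for any difference between the acids, and the number of arrays limits the precision throughout.

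Cells make cholesterol from acetyl-CoA through mevalonate, squalene and lanosterol. The genes of these enzymes are switched on by the sterol regulatory element-binding proteins (SREBPs), which are released from the endoplasmic reticulum when its sterol content falls and are held there by INSIG proteins when sterols are plentiful. SREBPs also switch on the genes that make fatty acids, elongate them and insert double bonds, and polyunsaturated fatty acids are known to lower SREBP activity in liver cells. Fatty acids are also ligands of the peroxisome proliferator-activated receptors (PPARs), which switch on genes of lipid droplets and of mitochondrial fatty acid oxidation. Mammals make oleic acid with stearoyl-CoA desaturases but cannot make linoleic acid, which they elongate and desaturate to arachidonic acid.

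Promoters of some genes toward the upper end and of Plin2 toward the lower end are shown, not a full set of either end. The known binding letters of these factors can be looked for in them. Windows of Hilpda and Cpt1a, whose differences were larger than that of Plin2, are not printed. The windows shown are the bases just upstream of the start of transcription in RefSeq on build GRCm38.p6, on the strand of the gene. Capitals mark matches to TCACNCCAC, a form of the sterol regulatory element, to CCAAT, the box of NF-Y, a factor that works with SREBPs (ATTGG where it lies on the other strand), and, in Plin2, to AGGTCA half-sites set 1 base apart, the kind of element PPARs bind, with at most 2 mismatches. Matches to CCAAT overlap each other in Fasn. The windows are chr13:119690101-119690350 (+) for Hmgcs1, chr1:169969206-169969325 (-) for Hsd17b7, chr10:76531485-76531604 (+) for Lss, chr8:122443423-122443542 (-) for Mvd, chr11:120824548-120824667 (-) for Fasn and chr4:86670060-86670309 (-) for Plin2.
Hmgcs1: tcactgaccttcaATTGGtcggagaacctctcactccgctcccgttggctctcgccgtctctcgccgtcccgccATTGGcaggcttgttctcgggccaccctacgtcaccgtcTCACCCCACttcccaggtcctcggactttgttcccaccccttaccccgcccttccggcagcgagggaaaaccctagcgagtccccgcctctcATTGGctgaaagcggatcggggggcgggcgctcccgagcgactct
Hsd17b7: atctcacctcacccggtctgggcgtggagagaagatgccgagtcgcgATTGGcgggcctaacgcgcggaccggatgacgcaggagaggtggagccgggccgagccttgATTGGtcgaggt
Lss: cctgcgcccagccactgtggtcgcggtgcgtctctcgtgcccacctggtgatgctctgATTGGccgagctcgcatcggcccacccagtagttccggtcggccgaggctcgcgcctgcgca
Mvd: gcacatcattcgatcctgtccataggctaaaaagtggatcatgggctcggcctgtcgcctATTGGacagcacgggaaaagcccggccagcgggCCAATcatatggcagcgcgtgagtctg
Fasn: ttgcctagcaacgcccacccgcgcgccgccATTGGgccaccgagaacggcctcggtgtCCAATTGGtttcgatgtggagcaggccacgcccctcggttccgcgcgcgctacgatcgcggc
Plin2: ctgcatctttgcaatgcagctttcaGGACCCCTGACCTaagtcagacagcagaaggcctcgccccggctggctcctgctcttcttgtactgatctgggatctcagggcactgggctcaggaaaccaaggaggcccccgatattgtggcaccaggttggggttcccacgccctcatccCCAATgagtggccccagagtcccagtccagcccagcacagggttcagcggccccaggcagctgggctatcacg

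The arrays of the 2 acids were close. Over all probes the linoleic and oleic acid arrays correlated at r = 0.994, and of the kept genes 64.6% lay within 1.1-fold and 93.5% within 1.25-fold of each other. At 1.5-fold or more, 79 genes were higher with linoleic acid (0.707% of the kept genes) and 38 were lower (0.340%), which is 117 genes in all (1.05%). At 2-fold or more, 17 genes were higher (0.152%) and 8 lower (0.0716%). Of the 117 genes, 108 code for proteins, 5 are miRNA genes and 4 are long non-coding RNA genes. Of the 11174 kept genes, 10724 code for proteins. Kept miRNA and long non-coding RNA genes were not counted separately, so their shares past 1.5-fold cannot be set beside the 1.05%.

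The balance between higher and lower genes moved with the scaling. As deposited, 67.5% of the genes at 1.5-fold or more were higher with linoleic acid. This share was 52.2% (60 genes higher, 55 lower) once the arrays had been centred on their medians, and 50.4% (57 higher, 56 lower) after quantile normalisation was repeated. The linoleic acid array had a median of 7.13 over all probes, against 7.07 on the oleic acid array, 7.08 on the palmitic acid array and 7.09 on the control array. Probes with no listed gene leaned the same way, with 1057 of 12146 higher at 1.5-fold or more (8.70%) and 205 lower (1.69%), and their part in the 79 genes was not tested. Of the probes with 1 gene, 115 of 21789 were higher and 50 lower. Genes of small RNAs and histones leaned the other way, with 1 of 10 kept above 0, against 55.3% of all kept genes. Their median difference was -0.21, with medians of -0.32 for linoleic minus control and -0.12 for oleic minus control. At the fold limit, Gclm (0.59) and Slc1a2 (0.59) lay just inside on the higher side and D130007C19Rik (0.58) and Tbc1d23 (0.58) just outside, while Gpr65 (-0.59) and Gab1 (-0.61) lay just inside on the lower side and Rnf144a (-0.57) and Slc25a20 (-0.57) just outside.

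**Figure D1:**
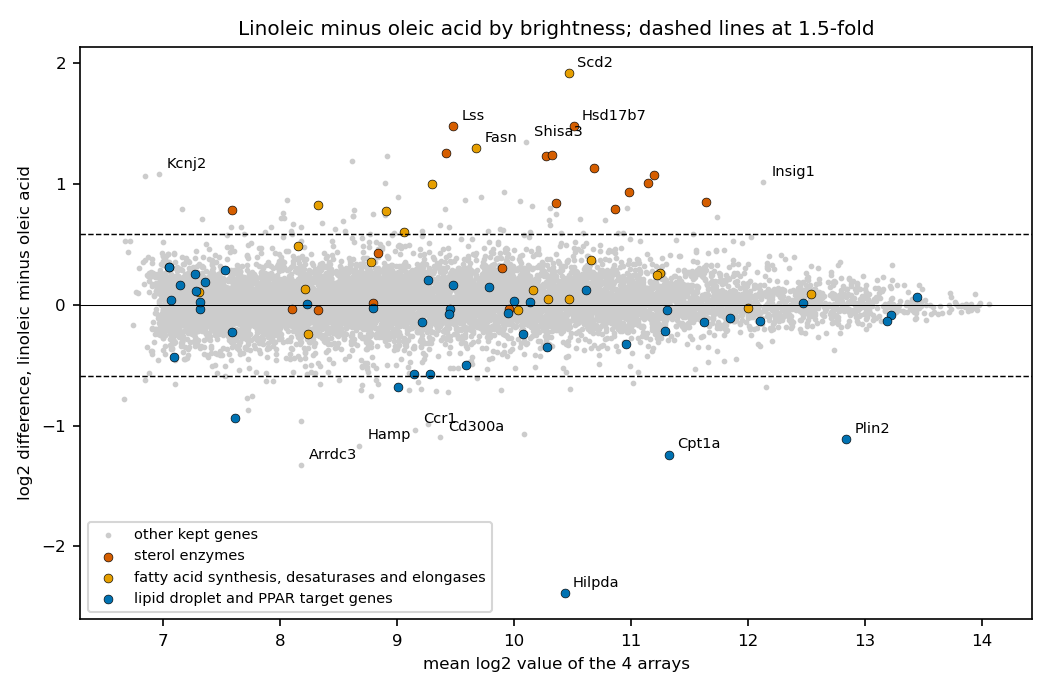
Each point is a kept gene, with its mean log2 value on the 4 arrays across and its linoleic minus oleic log2 difference upward, coloured by gene group, and dashed lines at 1.5-fold. Sterol enzymes and genes of fatty acid synthesis and desaturation make up much of the upper edge, with Scd2 at 1.92. Some genes of lipid droplets and PPAR targets lie at the lower edge, with Hilpda at -2.39, beside others such as Arrdc3 (-1.33) and Hamp (-1.16).

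The spread of the differences varied with brightness and was narrowest among the brightest genes. Among the 3370 genes with a mean of at most 8, a robust SD (scaled from the median absolute deviation) of 0.135 was found, against 0.160 for the 2098 genes between 9 and 10 and 0.10 for the 626 genes above 12. It measures how far genes scatter, not how far an array would move if it were repeated. The share past 1.5-fold varied too, with 0.593% of the genes up to 8, 1.55% between 10 and 11 and 0.479% above 12.

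Enzymes of sterol synthesis were higher with linoleic acid than with oleic acid at most steps measured. Of 9 kept enzymes that lead to squalene, 7 were at least 1.5-fold higher, none was lower by that much, and the median difference was 0.94. Of 10 kept enzymes that lead on to cholesterol, 6 were at least 1.5-fold higher, none was lower by that much, and the median was 0.85. Over all kept genes the median difference was 0.02, and 0.707% were higher at this fold. In bulk RNA of this kind, fewer cells of a type and less RNA per cell cannot be told apart.

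In the first stretch of the pathway, Hmgcs1, which joins acetyl-CoA and acetoacetyl-CoA ahead of mevalonate, had 11.80 with linoleic acid, 10.72 with oleic acid, 10.69 with palmitic acid and 11.57 in the control. Its palmitic and oleic acid values lay together and its linoleic acid value lay above the control, a log2 difference between the 18-carbon acids of 1.07. Mvk, the kinase that phosphorylates mevalonate, had 9.10 with linoleic acid, 8.68 with oleic acid, 8.57 with palmitic acid and 9.0 in the control, and its 0.43 stayed under 1.5-fold. The next kinase, Pmvk, read 8.04 with linoleic acid and 7.25 with oleic acid, 7.25 with palmitic acid and 7.79 in the control. Mvd, the decarboxylase whose promoter is printed above, had the largest difference of this stretch, 1.26. Its values were 10.01 with linoleic acid, 8.75 with oleic acid, 9.16 with palmitic acid and 9.75 in the control.

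At the isoprenoid steps too, linoleic acid and the control lay above oleic and palmitic acid, apart from Ggps1. Idi1, which interconverts both isoprene units, had 11.26 with linoleic acid, 10.12 with oleic acid, 10.16 with palmitic acid and 11.20 in the control, and its probes differed by 1.12 and 1.14. For Fdps, which builds farnesyl diphosphate, the values were 11.29 with linoleic acid, 10.50 with oleic acid, 10.61 with palmitic acid and 11.06 in the control. Fdft1, which joins farnesyl units into squalene and so commits the pathway to sterols, had 11.43 with linoleic acid, 10.49 with oleic acid, 10.66 with palmitic acid and 11.35 in the control. Its probes differed by 1.08 and 0.80. Ggps1 stands on a branch that makes geranylgeranyl groups for proteins, and it did not share the pattern, with 8.72 with linoleic acid, 8.70 with oleic acid, 9.04 with palmitic acid and 8.72 in the control. Squalene epoxidase, Sqle, had 10.90 with linoleic acid, 9.66 with oleic acid, 10.05 with palmitic acid and 10.69 in the control, a difference of 1.24.

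**Figure D2:**
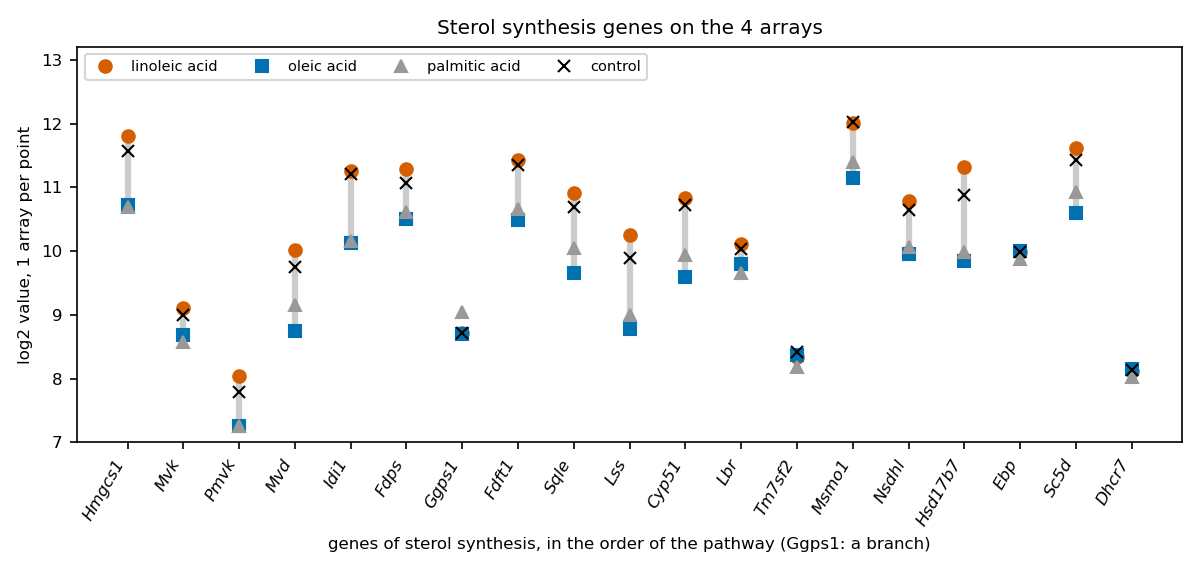
Log2 values of the kept sterol enzymes on the 4 arrays, in the order of the pathway, with 1 point per array and a grey bar that joins the linoleic and oleic acid points. Linoleic acid lies above oleic acid by 0.79 or more at the 7 and 6 enzymes past 1.5-fold, while Ggps1, Tm7sf2, Ebp and Dhcr7 lie between -0.04 and 0.02.

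The widest gaps of the pathway came where the sterol rings are closed and trimmed. Lss, which folds squalene epoxide into lanosterol, had 10.25 with linoleic acid, 8.77 with oleic acid, 9.0 with palmitic acid and 9.90 in the control, 2.79-fold higher with linoleic than with oleic acid. Hsd17b7, a ketosteroid reductase of the demethylation steps, had 11.32 with linoleic acid, 9.84 with oleic acid, 9.99 with palmitic acid and 10.89 in the control, a 2.80-fold difference. Both had a higher value with linoleic acid than on any other array, as had the other sterol enzymes past 1.5-fold except Msmo1. Both have CCAAT boxes in the promoters printed above, as has every sterol enzyme with a window, those near 0 included. Cyp51, the lanosterol demethylase, read 10.83 with linoleic acid, 9.59 with oleic acid, 9.94 with palmitic acid and 10.72 in the control. Msmo1, the methyl sterol oxidase, had 12.01 with linoleic acid, 11.15 with oleic acid, 11.39 with palmitic acid and 12.02 in the control. Its partner Nsdhl had 10.79 with linoleic acid, 9.95 with oleic acid, 10.06 with palmitic acid and 10.64 in the control. At both of these the linoleic acid and control values differed by little. Sc5d, a desaturase near the end of the pathway, had 11.62 with linoleic acid, 10.60 with oleic acid, 10.93 with palmitic acid and 11.43 in the control.

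The other steps lay near 0 or showed a small difference. Lbr, a sterol reductase that also anchors chromatin at the nuclear envelope, differed by 0.31. The differences were -0.04 for Tm7sf2, the reductase that acts beside Lbr, -0.03 for Ebp, a sterol isomerase, and -0.03 for Dhcr7, the reductase that gives cholesterol. Dhcr7 had 8.12 with linoleic acid, 8.15 with oleic acid, 8.02 with palmitic acid and 8.13 in the control.

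Genes that govern SREBPs or sterol entry were mixed, with 3 of 11 kept genes at least 1.5-fold higher (0.707% of all kept genes), none lower by that much and a median difference of 0.21. Insig1, which retains SREBPs and is itself an SREBP target, had 12.45 with linoleic acid, 11.44 with oleic acid, 12.41 with palmitic acid and 12.23 in the control. It stood apart from the enzymes in that its palmitic acid value lay with linoleic acid and not with oleic acid. Insig2, its relative that SREBPs do not drive, ran the other way by -0.17, with 9.46 with linoleic acid, 9.63 with oleic acid, 9.97 with palmitic acid and 9.50 in the control. Stard4, which carries sterol between membranes, had 9.57 with linoleic acid, 8.33 with oleic acid, 8.59 with palmitic acid and 9.18 in the control. Srebf2, which encodes the SREBP of sterol genes, had 11.66 with linoleic acid, 11.12 with oleic acid, 11.40 with palmitic acid and 11.37 in the control, and its 0.54 stayed under 1.5-fold. Differences were 0.27 for Srebf1, which encodes the SREBP of fatty acid genes, and 0.05 for Scap, the escort of SREBPs.

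Mylip (also called Idol), a ubiquitin ligase and a target of the liver X receptors (LXRs), was higher with linoleic acid too. It had 10.46 with linoleic acid, 9.52 with oleic acid, 9.35 with palmitic acid and 10.32 in the control. Mylip was the last of the 3 genes counted above and the only one of 12 kept LXR targets past 1.5-fold, and that list had a median difference of 0.03, which was -0.02 with the arrays centred. Among these targets, Abca1, which exports cholesterol, differed by 0.31 and its relative Abcg1 by -0.06. All kept genes had a median of 0.02, and 1.05% of them were past 1.5-fold.

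Of 8 kept genes that make fatty acids, 2 passed 1.5-fold upward, against 0.707% of all kept genes, and the median difference was 0.36. All 8 had differences above 0, as had 55.3% of all kept genes. Fasn, the fatty acid synthase that makes palmitic acid, had 10.31 with linoleic acid, 9.01 with oleic acid, 9.42 with palmitic acid and 9.96 in the control, a 2.46-fold difference. Acaca, the acetyl-CoA carboxylase that supplies it with malonyl-CoA, had 9.26 with linoleic acid, 8.49 with oleic acid, 8.80 with palmitic acid and 9.06 in the control, and its probes differed by 0.77 and 0.78. In both genes the control lay between the 18-carbon acids. Smaller differences were those of Acss2, which activates acetate (0.49), Acly, which cleaves citrate (0.37), Mid1ip1, an activator of the carboxylase (0.35), and Me1, which supplies NADPH (0.32).

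Desaturases and elongases held the largest difference upward. Of 13 kept, 4 were at least 1.5-fold higher (0.707% of all kept genes) and none lower by that much, with a median of 0.12, so most of the list lay close to 0. Scd2, a desaturase that puts a first double bond into saturated chains, had 11.38 with linoleic acid, 9.46 with oleic acid, 9.87 with palmitic acid and 11.15 in the control, a 3.79-fold difference. Scd1, the isoform of the same activity that is prominent in liver, had 9.38 with linoleic acid, 8.77 with oleic acid, 8.89 with palmitic acid and 9.20 in the control. Its difference of 0.61 was under 1.5-fold when the arrays were centred or quantile normalised again. Fads2, the desaturase that acts on linoleic acid itself, had 9.83 with linoleic acid, 8.83 with oleic acid, 8.77 with palmitic acid and 9.75 in the control. Elovl6, which elongates palmitic acid, had 8.82 with linoleic acid, 7.99 with oleic acid, 7.74 with palmitic acid and 8.75 in the control. The enzymes that act after Fads2 on the way to arachidonic acid lay near 0: Elovl5 differed by 0.05 and Fads1 by 0.12.

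Several genes on none of these lists sat beside the enzymes at the top. Aacs, which activates acetoacetate for lipid synthesis in the cytosol, had 9.46 with linoleic acid, 8.56 with oleic acid, 8.77 with palmitic acid and 9.23 in the control. Lipg, endothelial lipase, a phospholipase that acts on lipoproteins, had 9.20 with linoleic acid, 8.01 with oleic acid, 8.34 with palmitic acid and 8.92 in the control. Shisa3, of a family that holds Wnt and FGF receptors back in the endoplasmic reticulum, had 10.84 with linoleic acid, 9.49 with oleic acid, 9.37 with palmitic acid and 10.70 in the control. These 3 genes shared the order of the enzymes, with oleic and palmitic acid low and linoleic acid near or above the control. Pcyt2, an enzyme of phosphatidylethanolamine synthesis, was the only gene of 25 kept in phospholipid remodelling past 1.5-fold, against 1.05% of all kept genes. It had 9.18 with linoleic acid, 8.42 with oleic acid, 8.57 with palmitic acid and 9.01 in the control. Kcnj2, an inward rectifier potassium channel, was a dim gene, with 7.38 with linoleic acid, 6.30 with oleic acid, 6.78 with palmitic acid and 7.38 in the control, and its difference of 1.08 shrank to 0.29 when values below the brightness limit were raised to it. Eid3, of a family of proteins that bind the acetyltransferase EP300, did not share the order, with 9.30 with linoleic acid, 8.29 with oleic acid, 9.44 with palmitic acid and 8.54 in the control.

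**Figure D3:**
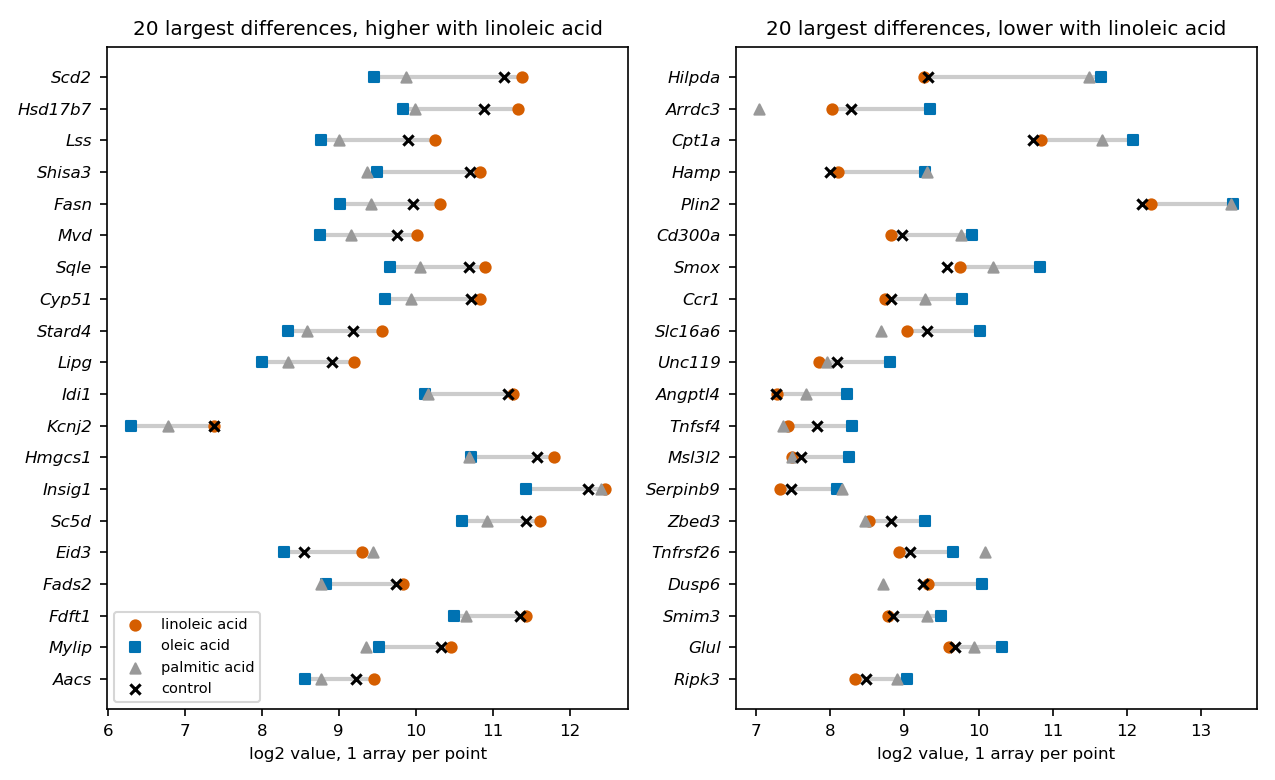
Log2 values on the 4 arrays for the 20 named genes with the largest differences in each direction, 1 point per array, with a grey bar from the linoleic to the oleic acid point. In most rows the control cross lies near the linoleic acid circle; palmitic acid lies with oleic acid for genes such as Idi1 (10.16 and 10.12) and with linoleic acid for genes such as Insig1 (12.41 and 12.45).

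Some of the genes at the lower end belong to lipid droplets or are PPAR targets. Of 15 kept PPAR targets, 5 were at least 1.5-fold lower with linoleic acid, none higher by that much, and the median difference was -0.50, while 0.340% of all kept genes were that much lower. With the 7 dim genes of the list included, its median was -0.082. Of 30 kept genes of lipid droplets and triglyceride turnover, 2 were lower by that fold and the median was -0.04. These 2, Hilpda and Plin2, are on both lists. The difference in the droplet group thus lay in a pair of genes and not across the group.

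Hilpda, a droplet protein that inhibits triglyceride lipase, had 9.27 with linoleic acid, 11.66 with oleic acid, 11.49 with palmitic acid and 9.32 in the control, which is 5.23-fold lower with linoleic than with oleic acid. This was the largest difference of the whole comparison, and its linoleic acid value lay at the control. Plin2, the protein that coats lipid droplets and is often used as a measure of lipid loading, had 12.32 with linoleic acid, 13.43 with oleic acid, 13.41 with palmitic acid and 12.21 in the control. The differences of other droplet genes were -0.43 for Gpat3, an acyltransferase of triglyceride synthesis, -0.34 for Pnpla2, the lipase that HILPDA inhibits, and -0.24 for Plin3, a coat protein that also occurs in the cytosol. They were 0.31 for Lpin1, a phosphatidate phosphatase, and 0.29 for Dgat2, which completes triglycerides. None of these 5 reached 1.5-fold.

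Among genes of fatty acid oxidation, Cpt1a, which makes the acylcarnitines that enter mitochondria, had 10.84 with linoleic acid, 12.08 with oleic acid, 11.66 with palmitic acid and 10.73 in the control. It was the only gene of 19 kept in the carnitine shuttle and beta-oxidation past 1.5-fold, against 1.05% of all kept genes. Of the 19, 3 lay above 0, against 55.3% of all kept genes, and the median was -0.12. Counts above 0 depend on the scaling, since centring the arrays shifted all kept genes by 0.06. Slc25a20, the carrier of acylcarnitines across the inner membrane, had 8.94 with linoleic acid, 9.51 with oleic acid, 9.19 with palmitic acid and 8.94 in the control, just short of the fold. The thioesterase Acot2 had 9.02 with linoleic acid, 9.59 with oleic acid, 9.37 with palmitic acid and 9.12 in the control. In both the control lay with linoleic acid. For Acaa2, the thiolase of the last step of a cycle, the difference was -0.50. Angptl4, a secreted inhibitor of lipoprotein lipase, had 7.29 with linoleic acid, 8.22 with oleic acid, 7.67 with palmitic acid and 7.27 in the control. Klf10, a zinc finger repressor, had 8.88 with linoleic acid, 9.56 with oleic acid, 8.86 with palmitic acid and 8.71 in the control. In Klf10 palmitic acid lay with linoleic acid, unlike in Hilpda, Plin2 and Cpt1a, where it lay with or toward oleic acid. Pdk4, a PPAR target of glucose oxidation, was too dim to be kept.

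Oxidation of a chain with double bonds needs auxiliary isomerases and reductases, and linoleic acid needs a reductase that oleic acid does not. None of 9 kept genes of that group reached 1.5-fold in either direction, against 1.05% of all kept genes, and the median was -0.03. A count of 0 in a list of this size lies near that share. Decr1, the mitochondrial dienoyl-CoA reductase, differed by -0.21 and its peroxisomal counterpart Decr2 by -0.26, while the isomerases Eci1 and Eci2 differed by 0.04 and -0.03. The same holds for eicosanoid synthesis, the path that starts from arachidonic acid, and for fatty acid uptake and sensing. None of 17 kept genes of the former and none of 11 of the latter reached 1.5-fold, against 1.05% of all kept genes. In these groups Ptgs2, the inducible cyclooxygenase, had 13.78 with linoleic acid, 13.76 with oleic acid, 13.74 with palmitic acid and 13.81 in the control. Alox15, a lipoxygenase that can oxidise linoleic acid, differed by 0.24, and Pla2g15, a lysosomal phospholipase, by -0.41. The scavenger receptor and fatty acid transporter Cd36 differed by -0.09, and the fatty acid binding proteins Fabp4 and Fabp5 by -0.33 and -0.03. Alox5 was too dim to be kept.

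**Figure D4:**
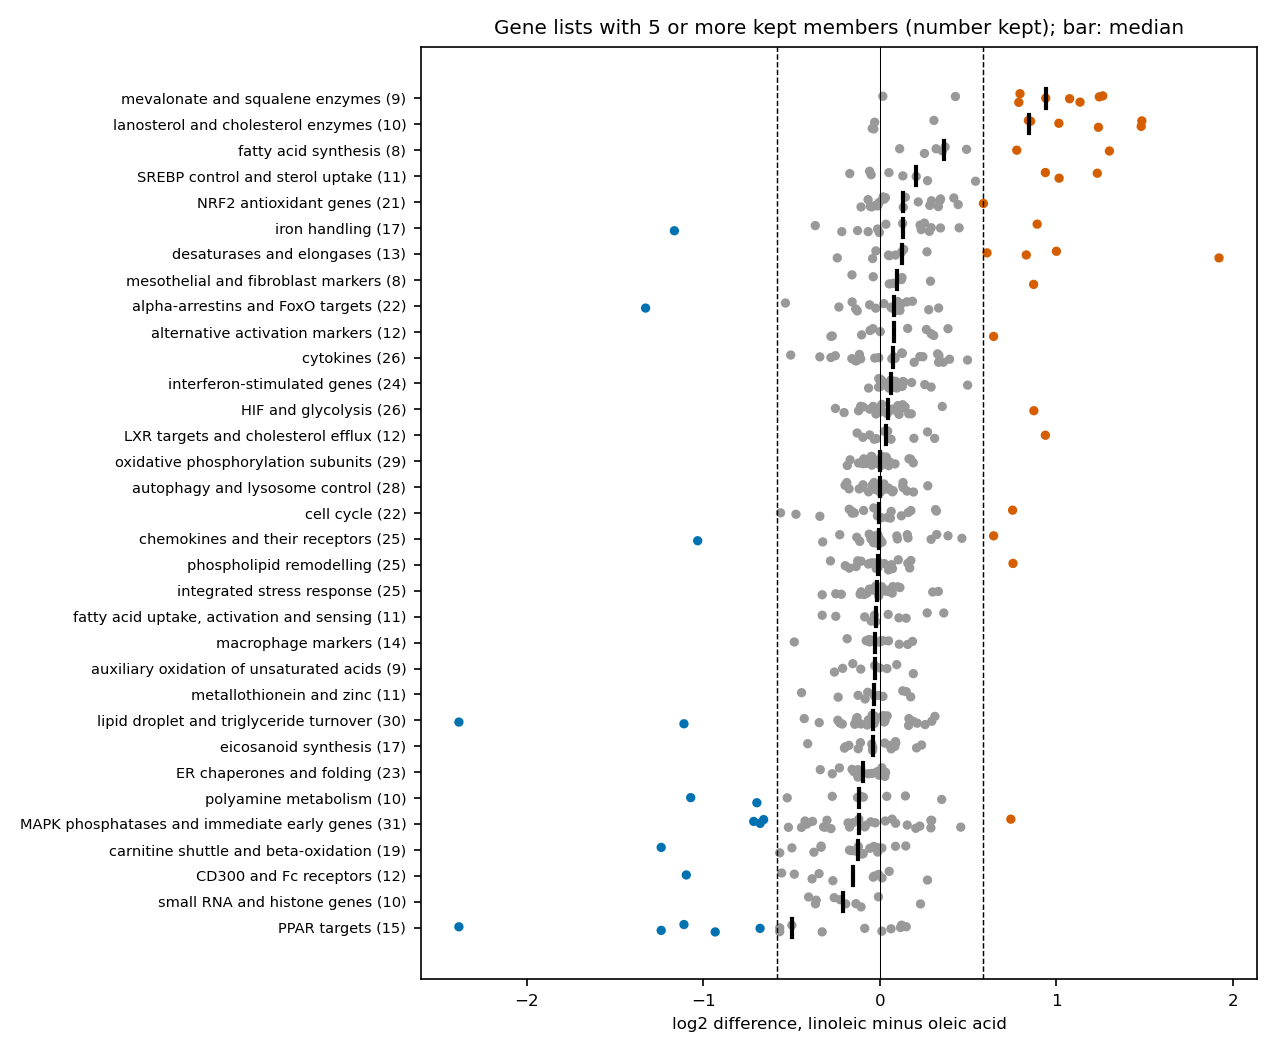
Linoleic minus oleic log2 differences of the kept members of each gene list with at least 5 of them, with the number kept in brackets; points past 1.5-fold are coloured (orange higher, blue lower), black bars are medians, and the lists run by median from 0.94 to -0.50. Sterol enzymes lie furthest right, PPAR targets furthest left, and lists of stress, inflammation and respiration lie around 0 with few or no coloured points.

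Among genes of iron handling, 1 was past 1.5-fold at each end, while of all kept genes 0.707% were that much higher and 0.340% lower. Hamp, the hormone hepcidin that closes the iron exporter, had 8.11 with linoleic acid, 9.28 with oleic acid, 9.31 with palmitic acid and 7.99 in the control. Cp, ceruloplasmin, the ferroxidase that helps iron leave cells, ran the other way, with 10.44 with linoleic acid, 9.54 with oleic acid, 8.81 with palmitic acid and 10.09 in the control. They were the only lower and the only higher gene past 1.5-fold of 17 kept iron genes, whose median was 0.13. Smox, spermine oxidase, had 9.75 with linoleic acid, 10.82 with oleic acid, 10.20 with palmitic acid and 9.58 in the control. Odc1, ornithine decarboxylase, the first enzyme of polyamine synthesis, had 9.01 with linoleic acid, 9.71 with oleic acid, 8.89 with palmitic acid and 9.21 in the control, and its probes differed by -0.64 and -0.76. These were the 2 genes past 1.5-fold of 10 kept in polyamine metabolism, against 0.340% of all kept genes that were that much lower. On that list Arg2, an arginase that feeds the path, differed by -0.53 and Azin1, an inhibitor of the antizyme that destroys ODC1, by 0.35.

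Cd300a, an inhibitory receptor for phosphatidylserine, was the only one of 12 kept CD300 and Fc receptors past 1.5-fold, against 1.05% of all kept genes. It had 8.82 with linoleic acid, 9.91 with oleic acid, 9.77 with palmitic acid and 8.96 in the control. Differences of its neighbours on that list were -0.56 for Cd300lb, an activating receptor, -0.49 for Fcgr1, the high-affinity IgG receptor, and -0.38 for Fcgr3, its low-affinity relative. Of the 12, 3 lay above 0, against 55.3% of all kept genes. Ccr1, a chemokine receptor, had 8.74 with linoleic acid, 9.77 with oleic acid, 9.27 with palmitic acid and 8.82 in the control. Tnfsf4, the ligand of OX40 on T cells, had 7.43 with linoleic acid, 8.30 with oleic acid, 7.36 with palmitic acid and 7.82 in the control, so that its control lay between the 18-carbon acids. Ccl24, an eosinophil attractant, was the only gene at least 1.5-fold higher among 25 kept chemokines and receptors and among 12 kept alternative activation markers. Of all kept genes 0.707% were that much higher. Ccl24 had 7.98 with linoleic acid, 7.33 with oleic acid, 7.45 with palmitic acid and 7.53 in the control.

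Arrdc3, an alpha-arrestin that takes receptors off the surface, had 8.02 with linoleic acid, 9.35 with oleic acid, 7.04 with palmitic acid and 8.28 in the control. Its oleic acid value was the highest of the 4 and its palmitic acid value the lowest, so the 2 acids lay on either side of the others. It was the only gene of 22 kept alpha-arrestins and FoxO targets past 1.5-fold, against 1.05% of all kept genes. Txnip, another alpha-arrestin, differed by 0.06. Slc16a6, of the monocarboxylate transporter family, had 9.04 with linoleic acid, 10.02 with oleic acid, 8.68 with palmitic acid and 9.31 in the control, the same order as Arrdc3. Glul, glutamine synthetase, had 9.61 with linoleic acid, 10.32 with oleic acid, 9.94 with palmitic acid and 9.69 in the control, and its probes differed by -0.72 and -0.69.

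The other named genes at the lower end serve unrelated functions. Unc119, a chaperone of lipid-modified proteins, had 7.85 with linoleic acid, 8.81 with oleic acid, 7.96 with palmitic acid and 8.09 in the control. Serpinb9, an inhibitor of granzyme B, had 7.33 with linoleic acid, 8.09 with oleic acid, 8.16 with palmitic acid and 7.47 in the control. Ripk3, the kinase of necroptosis, had 8.33 with linoleic acid, 9.03 with oleic acid, 8.91 with palmitic acid and 8.49 in the control. In Serpinb9 and Ripk3 palmitic acid lay with oleic acid, and in Unc119 it lay with linoleic acid. The differences of Msl3l2, Zbed3, Tnfrsf26 and Smim3 were -0.77, -0.75, -0.72 and -0.71.

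Among MAP kinase phosphatases and immediate early genes, 3 of 31 kept were at least 1.5-fold lower and 1 higher, with a median of -0.12. Of all kept genes 0.340% were that much lower and 0.707% higher. The 3 lower genes are all dual-specificity phosphatases. Dusp6, which acts on ERK, had 9.32 with linoleic acid, 10.04 with oleic acid, 8.71 with palmitic acid and 9.25 in the control. Dusp1, which acts on p38 and JNK, had 11.84 with linoleic acid, 12.52 with oleic acid, 12.60 with palmitic acid and 11.65 in the control. Dusp10, which also acts on p38 and JNK, had 8.20 with linoleic acid, 8.86 with oleic acid, 9.57 with palmitic acid and 8.17 in the control. In each of the 3 the linoleic acid value lay near the control, while palmitic acid lay below it in Dusp6 and above it in Dusp1 and Dusp10. Others of the family differed by -0.52 (Dusp5) and 0.46 (Dusp4). The higher gene, the nuclear receptor Nr4a3, had 9.29 with linoleic acid, 8.55 with oleic acid, 8.58 with palmitic acid and 9.15 in the control.

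In several lists of stress and inflammation no gene passed the limit, and with 1.05% of all kept genes past it, a count of 0 in lists of this size lies near that share. No member reached 1.5-fold among 25 kept genes of the integrated stress response, 23 endoplasmic reticulum chaperones, 28 of autophagy, 26 cytokines, 24 interferon-stimulated genes, 11 of metallothionein and zinc or 29 subunits of oxidative phosphorylation. Ddit3, the stress factor CHOP, had 8.85 with linoleic acid, 8.87 with oleic acid, 9.57 with palmitic acid and 8.66 in the control. The cytokine Il1b had 13.75 with linoleic acid, 13.78 with oleic acid, 13.65 with palmitic acid and 13.78 in the control, and Tnf differed by 0.07. The widest differences among cytokines were -0.51 for Il23a, a subunit of interleukin 23, and 0.50 for Il18. Of the interferon-stimulated genes 21 of 24 lay above 0, against 55.3% of all kept genes, but their median of 0.06 was 0.01 with the arrays centred. Gclm, which sets the rate of glutathione synthesis, was the only gene of 21 kept NRF2 targets past 1.5-fold. It had 11.53 with linoleic acid, 10.94 with oleic acid, 12.20 with palmitic acid and 11.47 in the control, and it was under that fold when the arrays were rescaled. The median of the 21 was 0.13, against 0.02 for all kept genes, and 14 lay above 0 and 7 below. The next largest differences were those of Txnrd1 (0.44) and Mafg (0.42). Single genes past 1.5-fold were Adm, the peptide adrenomedullin, among 26 kept genes of hypoxia and glycolysis (0.87), and Mki67, a marker of dividing cells, among 22 kept cell cycle genes (0.75). The cyclins Ccnd1 and Ccnd2 differed by -0.56 and -0.48.

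Markers matched the label of macrophages on both arrays. Of 16 macrophage markers on the array 14 were kept, none differed by 1.5-fold, and their summed level (log2 of the sum of linear values) was 16.57 with linoleic acid, 16.61 with oleic acid, 16.51 with palmitic acid and 16.58 in the control. Among them Lyz2, lysozyme, had 13.85 with linoleic acid and 13.91 with oleic acid, and Cd68 had 13.63 with linoleic acid and 13.69 with oleic acid, while Cd163 and Ccr2 lay under the limit. Mesothelial and fibroblast markers, 8 of 14 kept, summed to 12.62 with linoleic acid, 12.41 with oleic acid, 12.14 with palmitic acid and 12.53 in the control. Of these 8, 1 passed 1.5-fold, Pdgfrb, a growth factor receptor of mesenchymal cells, with 10.20 with linoleic acid, 9.33 with oleic acid, 8.74 with palmitic acid and 10.04 in the control. Mast cell and eosinophil markers, 3 of 10 kept, summed to 11.48 with linoleic acid, 11.22 with oleic acid, 10.55 with palmitic acid and 11.26 in the control. Hdc, the brightest of the 3, weighs most in these sums. It had 10.84 with linoleic acid, 10.46 with oleic acid, 9.27 with palmitic acid and 10.54 in the control. Siglecf ran the other way, by -0.18. Of the 3, 1 passed 1.5-fold, Kit, the stem cell factor receptor, with 7.64 with linoleic acid, 6.85 with oleic acid, 6.85 with palmitic acid and 7.30 in the control. Kit was under 1.5-fold, at 0.55, with values under the limit raised to it. Of all kept genes 0.707% were at least 1.5-fold higher. The mast cell genes Cpa3, Mcpt4, Cma1, Tpsb2 and Fcer1a were all under the limit. The part of these cells in the other differences was not tested. Of B cell, T and NK cell, neutrophil and dendritic cell markers 1, 1, 1 and 2 were kept, and their summed levels with linoleic acid were within 0.08 of those with oleic acid.

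Set beside the control, these genes had linoleic acid values that lay nearer to it, at the median, than the oleic acid values. Both of the following differences use the control array and share an array with the comparison that chose the genes, so they describe where the values lie and support nothing. The 79 higher genes had a median linoleic minus control difference of 0.21 (-0.26 to 0.76) and a median oleic minus control difference of -0.56 (-1.69 to 0.08). The 38 lower genes had a median linoleic minus control difference of -0.13 (-0.60 to 0.20) and a median oleic minus control difference of 0.64 (0.06 to 2.34). At 1.5-fold, 4 of the 79 were higher and 1 of the 38 lower with linoleic acid than in the control, against 0.0358% of all kept genes in each direction. With oleic acid 36 of the 79 were lower than in the control, against 0.340% of all kept genes, and 23 of the 38 higher, against 0.376%.

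The palmitic acid and control arrays share no array with the comparison, and their difference was therefore read separately. Of the 79 genes higher with linoleic acid, 58 were lower with palmitic acid than in the control (73.4%), against 49.9% of all kept genes. By at least 1.5-fold, 28 of the 79 were lower (35.4%), against 1.41% of all kept genes. In the same direction as linoleic acid lay 4 of the 79 past 1.5-fold, Intu (1.03), Eid3 (0.90), Gclm (0.72) and Eno2 (0.71), against 2.17% of all kept genes. Of the 38 genes lower with linoleic acid, 11 had palmitic acid values that exceeded the control by 1.5-fold or more (28.9%, against 2.17% of all kept genes), and 3 were lower by that much, Arrdc3 (-1.24), Xpo1 (-0.72) and Slc16a6 (-0.63). The 11 were Hilpda, Dusp10, Hamp, Plin2, Tnfrsf26, Gab1, Dusp1, Cpt1a, Cd300a, Serpinb9 and Smox. Over the 117 genes the differences correlated at r = -0.54, and over all 11174 kept genes at r = -0.03, a description across genes, which are not independent, with no test.

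**Figure D5:**
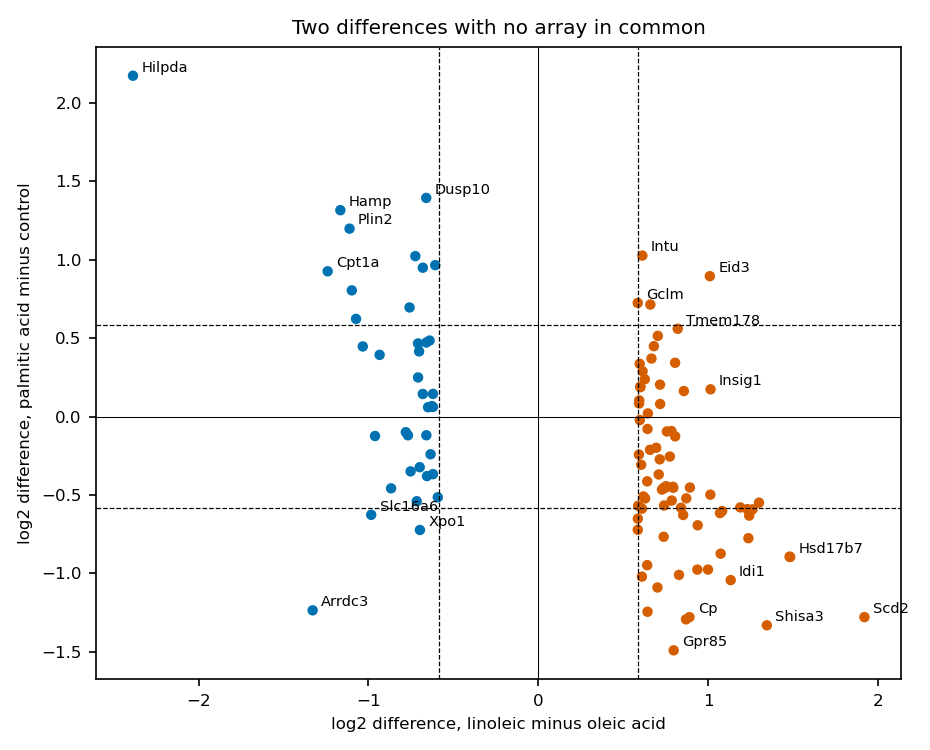
Each point is 1 of the 117 genes past 1.5-fold, with its linoleic minus oleic log2 difference across and its palmitic minus control log2 difference upward; orange genes are higher and blue genes lower with linoleic acid, and dashed lines mark 1.5-fold. Most orange points lie below 0 (58 of 79, against 49.9% of all kept genes), with Scd2 at -1.28. Blue points lie on both sides, with Hilpda at 2.17 and Arrdc3 at -1.24.

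The promoter letters were counted in 250 bases upstream of the start, on both strands, for the 8934 kept genes with a RefSeq window, 59 of the 79 higher and 29 of the 38 lower genes among them. TCACNCCAC stood in 3 of the 59 (5.08%), Hmgcs1, Echdc1 and Tfec, in 0 of the 29 and in 110 of 8934 (1.23%). CCAAT stood in 34 of the 59 (57.6%), in 16 of the 29 (55.2%) and in 3474 of 8934 (38.9%). All 16 sterol enzymes with a window held CCAAT, and these include Ggps1, Tm7sf2, Ebp and Dhcr7, which lay near 0. CACGTG, an E-box that SREBPs can bind, stood in 7 of the 59 (11.9%), in 5 of the 29 (17.2%) and in 897 of 8934 (10.0%). The AGGTCA repeat with at most 2 mismatches stood in 1 of the 59, in 1 of the 29, Plin2, and in 284 of 8934 (3.18%), and none of these letters stood in the windows of Hilpda. A match says only that these letters are there.

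The 5 miRNA genes past 1.5-fold were named after their values were seen, and a probe does not tell the 2 arms of a hairpin or its primary transcript apart. How many miRNA genes were kept was not counted, so no share is given for them. Mir146, whose products damp NF-kB signalling, had 7.33 with linoleic acid, 6.26 with oleic acid, 6.57 with palmitic acid and 7.19 in the control. Its difference of 1.07 was 0.24, under 1.5-fold, with values under the limit raised to it. Mir222 had 10.55 with linoleic acid, 9.84 with oleic acid, 10.67 with palmitic acid and 10.15 in the control. Mir505 and Mir680-2 were also higher, by 0.81 and 0.72, and Mir196a-2 was lower, at -0.78, with 6.33 with linoleic acid, 7.10 with oleic acid, 6.56 with palmitic acid and 6.66 in the control. It was kept through its oleic acid value alone, and with values under the brightness limit raised to it the difference was -0.01. In Mir146 oleic and palmitic acid lay low together, whereas in Mir222 palmitic acid lay with linoleic acid. The mature sequences of Mir146 (chr11:43374435-43374456 and chr11:43374399-43374420, -) and of Mir222 (chrX:19146901-19146923, -), from RefSeq on GRCm38.p6, show that they share no seed (bases 2 to 8, in capitals).
mmu-miR-146a-5p: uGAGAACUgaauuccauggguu
mmu-miR-146a-3p: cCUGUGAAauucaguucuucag
mmu-miR-222-3p: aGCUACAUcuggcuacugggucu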

How the data were processed

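Total RNA of peritoneal macrophages was hybridised to 4 Affymetrix gene arrays. The authors deposited 1 log2 value per probe and array. RMA (background correction, quantile normalisation and probe summary) made them, per the submitters' processing notes; its version is not given in the sources used here. Values range from 2.28 to 14.4, and RMA narrows the differences of dim probes.

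Of 35556 probes, 21789 had 1 gene in the platform annotation, 1621 had several and 12146 had none. Of the probes with 1 gene, 21698 had an Entrez ID in the RefSeq gene table. Groups were taken from the labels. Values were averaged per gene, filtered on brightness and subtracted; no test was possible with 1 array per group. A gene counted as higher or lower at 1.5-fold. Genes were named by rule: the 20 largest differences in each direction (without predicted models, small RNA genes, pseudogenes and olfactory receptors), list members past 1.5-fold, up to 4 members of each list, and a set of 43 genes. That set held mostly lipid genes, and others such as Il1b, Tnf, Ddit3, Hamp, Arrdc3 and Ccr1. In it Pdk4 and Alox5 were dim. A few other genes, such as Ggps1, Dusp5 and Acot2, were named to complete a pathway or family after their values were seen. The members and the 38 lists were chosen with earlier results of these data known. The counting of genes past the fold was tested on simulated data with planted differences well past it. That test covered the count only, not the other steps. Python 3.11.15, pandas 2.3.3, numpy 2.4.6 and matplotlib 3.10.9 were used. Alternatives changed the scaling, filter, probe choice and fold.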

Additional observations from a re-analysis of the deposited data

Results flagged for a closer look

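Linoleic and oleic acid lay on opposite sides of the control, each by more than 1.25-fold, in 13 of the 11174 kept genes. The difference between the acids was not tested, and both sides were read against the same control array. Hsd17b7, the ketosteroid reductase of sterol synthesis (linoleic minus oleic 1.48), differed from the control by 0.44 with linoleic acid and by -1.05 with oleic acid. For Lss (1.48) these values were 0.35 with linoleic acid and -1.13 with oleic acid, and for Fasn (1.3) they were 0.35 with linoleic acid and -0.95 with oleic acid. The sterol carrier Stard4 (1.23) gave 0.39 with linoleic acid and -0.84 with oleic acid. Ceruloplasmin, Cp (0.89), gave 0.35 with linoleic acid and -0.55 with oleic acid, and the receptor Kit (0.80) gave 0.34 with linoleic acid and -0.46 with oleic acid. The ligand Tnfsf4 (-0.87) was turned the other way, with -0.39 with linoleic acid and 0.48 with oleic acid. Eno2, neuron-specific enolase (0.66), gave 0.33 with linoleic acid and -0.33 with oleic acid. Of the miRNA genes, Mir505 (0.81) gave 0.41 with linoleic acid and -0.40 with oleic acid, Mir680-2 (0.72) gave 0.37 with linoleic acid and -0.35 with oleic acid, and Mir196a-2 (-0.78) gave -0.33 with linoleic acid and 0.45 with oleic acid. The last 2 are Phxr4 (0.86), with 0.39 with linoleic acid and -0.46 with oleic acid, and Gdap10 (0.81), with 0.40 with linoleic acid and -0.41 with oleic acid.

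Outside the genes compared, 357 of 12146 probes with no listed gene had a linoleic acid value that exceeded both the oleic acid and the control value by 1.5-fold or more. Of these 357, 136 reached the brightness limit used for genes. Among probes with 1 gene the count was 9 of 21789.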

How the results depend on the processing

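No paired analysis was possible because each group is 1 array, and no array could be left out in turn. Of the 11 alternatives, those that kept the 1.5-fold limit gave 1790 values for the 204 named genes. Of these values 1776 moved by at most 0.1 and 14 by more. Sign was followed only for the 64 named genes past 1.5-fold, of which 0 changed sign. Centring shifted all kept genes by 0.06, so smaller differences can change sign. Of 295 list medians 290 moved by at most 0.1, and 0 of those at least 0.1 in size changed sign. At 1.3-fold, 284 genes were higher with linoleic acid and 168 lower, 34 of the lower genes on a list. At 2-fold, 17 were higher and 8 lower, 12 and 8 of them listed. Of all 11174 kept genes 565 were listed. The lists were chosen with earlier results of these data known, so the counts of listed genes support nothing. The filter at the 75th percentile left 58 higher and 25 lower genes, and moved the medians of CD300 and Fc receptors to -0.27 and of polyamine genes to -0.24; without a filter 96 were higher and 46 lower, and the medians were -0.082 for PPAR targets and -0.040 for CD300 and Fc receptors. The brightest probe per gene gave the enzymes that lead to squalene a median of 0.80. Protein-coding genes alone, an alternative chosen after seeing the data, gave 71 higher and 37 lower. With values under the limit raised to it, 7 genes were under 1.5-fold (Kcnj2, Kit, Plcb4, Klk9, Car6, Mir146 and Mir196a-2), and Gpat3 differed by -0.18. Centred arrays kept 60 of the 79 higher genes and all 38 lower ones, and added 17 lower genes; repeated quantile normalisation kept 57 and 38 and added 18. With centring or repeated quantile normalisation Gclm and Scd1 lay under 1.5-fold. What moved these values was not tested. Under 1 array per acid, signal over background and the spread between arrays are unknown.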
